A study of Rattus norvegicus with 16 samples.

Results

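The 8 arrays of slide 2 carried liver RNA of mixture-exposed rat pups, and they stood in 2 rows on the slide. The 4 arrays of row 2 were compared with the 4 arrays of row 1, out of 16 arrays in the series. The study measured the liver transcriptome of male Sprague-Dawley pups at 21 days of age on Agilent 2-colour arrays. Liver RNA was labelled with Cy5, and a universal rat reference RNA, a mix of rat cell lines, with Cy3 on every array, with no dye swap. Group M pups stayed with their own dams, which were dosed at 1 mg/kg/day, in corn oil, through gestation and nursing with a blend of methyl mercury, polychlorinated biphenyls and organochlorine pesticides. Group MM pups were born to such dams and were moved at birth to other dams on the same mixture. Slide 1 held the pups that met corn oil only, group C with their own dams and group CC cross-fostered, and serves below as a slide with other pups in the same layout. Each array held RNA pooled from 2 pups, whose litters are not given. Each pool was on 1 array, so p-values measure the spread between arrays, in which pool and array cannot be told apart.

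Row 1 of slide 2 held the arrays M 5, MM 1, M 6 and MM 2 in columns 1 to 4, and row 2 held MM 3, M 7, MM 4 and M 8. Each row thus held 2 M and 2 MM arrays, and the group was kept as a block. The rows differ in the pools they carry and in their place on the slide, which cannot be told apart by design. The question was which liver programmes differed between the pools in Cy5 and in the log2 ratio of Cy5 over Cy3, with Cy3, which held no pup RNA, as the control. On such an array each probe sits at a fixed spot row and spot column, the same on every array, and the row differences are set against the 384 spot rows below. The weanling liver is itself in transition: the hepatocyte moves from milk fat to solid food, raises its bile acid, urea and drug-metabolizing enzymes, and follows feeding and the clock through glucocorticoids, insulin and sterol sensors.

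In the log2 ratio, 940 of 12123 genes were called (7.75%; limma, adjusted p under 0.05), 605 higher (4.99%) and 335 lower (2.76%) in row 2. In Cy5 alone 1417 were called (11.7%), 863 higher (7.12%) and 554 lower (4.57%), and 31.3% of genes had an unadjusted p under 0.05. In Cy3 alone 4 were called (0.033%). Of the ratio calls, 802 (6.62% of the genes) were also called in Cy5 in the same direction and not in Cy3, 536 higher (4.42%) and 266 lower (2.19%). The 4 arrays of one row lay apart from the 4 of the other for 21.8% of genes in the ratio, 22.5% in Cy5 and 8.6% in Cy3. The calls were small and lay close to the threshold: their median size was 0.41 on the log2 scale (quartiles 0.35 and 0.48), and the lowest adjusted p was 0.0338. Over all genes the median size was 0.13 and the median standard error 0.09. The count of calls moved with single arrays. Without M 5, MM 1, MM 3 or M 7 no gene was called in the ratio (limma; 3121, 2515, 3110 and 2861 genes at an unadjusted p under 0.05), and without M 8 only 1 was. Without M 6 or MM 2 the count was 374 and 436, and without MM 4 it was 1096. Each array column held 1 array of each row, and with the column as a further block no gene was called in the ratio (limma; 3386 at an unadjusted p under 0.05) or in Cy5 (3526).

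The direction of a gene's row difference followed the place of its probe on the array. Among the 4483 tested genes whose probe had 1 spot, the spot rows were cut into 8 bands of 48. The median row difference was 0.37 in spot rows 1 to 48 and 0.21 in spot rows 49 to 96. It passed 0 between the third and the fourth band, and was -0.22 in spot rows 289 to 336 and -0.34 in spot rows 337 to 384. In the first band 99.1% of the genes had a higher ratio in row 2, and in the last band 1.91%. The first 2 bands held 359 of the 362 calls that were higher in row 2, and the last 3 bands held 185 of the 186 that were lower. Over all called genes, with 1 or more spots, the mean spot row of the probe lay in the first 192 spot rows for 603 of 605 higher calls and beyond them for 335 of 335 lower calls. Of all tested probes 50.0% lay in the first 192.

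The band of spot rows accounted for 70.9% of the variance of the row difference across these genes in the ratio and for 68.8% in Cy5. In Cy3 it accounted for 2.16%, and the largest median Cy3 difference of a band was 0.0311 in size. The difference between MM and M from the same fit, which is spread evenly over the rows, had 13.9% of its variance by band. On slide 1, in other pups, the band accounted for 49.4% of the row difference, which ran from 0.25 in the first band to -0.22 in the last.

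**Figure D1:**
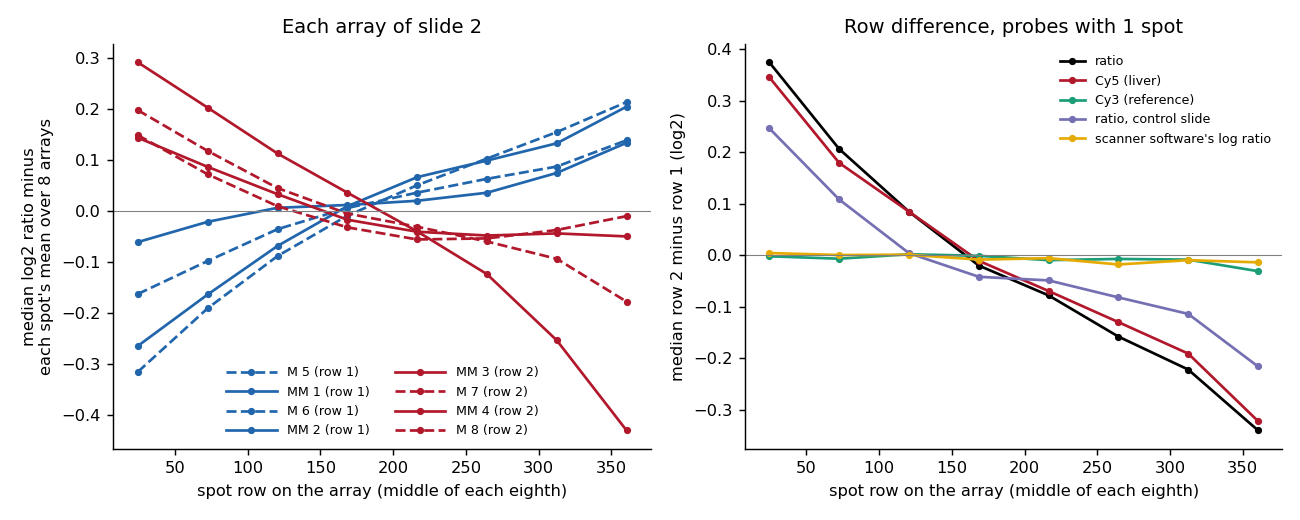
Left, the median log2 ratio of each slide 2 array, after taking each spot's mean over the 8 arrays, against the spot row in 8 bands (blue, row 1; red, row 2; solid, MM; dashed, M). Right, the median difference of row 2 minus row 1 by band for 5 measures in genes with 1 spot: the ratio falls from 0.37 to -0.34, and the reference channel and the scanner software's log ratio stay near 0.

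The trend was also laid out by array, relative to each spot's mean over the 8 arrays. Such values place the arrays against each other and do not measure the trend of an array by itself. In the first band, the median ratio relative to the spots' means was -0.32 on M 5, -0.27 on MM 1, -0.16 on M 6 and -0.06 on MM 2. It was 0.29 on MM 3, 0.20 on M 7, 0.14 on MM 4 and 0.15 on M 8. The rows did not overlap there. In the last band the order was turned, from 0.21 on M 5, 0.21 on MM 1, 0.14 on M 6 and 0.13 on MM 2 to -0.43 on MM 3, -0.18 on M 7, -0.05 on MM 4 and -0.01 on M 8. Relative to the spots' means, the trend was steepest on MM 3, M 5 and MM 1 and shallowest on M 8, MM 4 and MM 2.

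The scanner files also hold a log ratio made by the scanner software after its own corrections. The factor that the software applied between the background-subtracted and the processed Cy5 signal varied with position: blocks of spot position accounted for 57.5% to 88.6% of its variance on the 8 arrays. The row difference in that factor correlated with the row difference in the ratio at r = -0.76 over 6459 genes whose spots had enough Cy5 signal, and for Cy3 at r = 0.02 over 10217 genes (correlations across genes, which share arrays and position). With the software's log ratio no gene was called (limma; 707 of 12123, 5.83%, at an unadjusted p under 0.05), against 3581 (29.5%) in the main ratio. The 940 called genes had a median size of 0.09 in the software's ratio. There 729 of the 940 (77.6%) kept their direction, and 173 of the 940 had an unadjusted p under 0.05 (limma). The 940 were chosen by their row difference on these same arrays, so a kept direction or a low p was favoured in advance, here and below. Taking each array's median out of 128 blocks of spot position, an alternative chosen after seeing the data, left no call in the ratio (limma; 914 at an unadjusted p under 0.05) or in Cy5 (1380), and the called genes had a median size of 0.10. With the trend out 798 of the 940 (84.9%) kept their direction, and 240 of the 940 had an unadjusted p under 0.05 (limma). The deposited series table, in contrast, ran from 0.38 in the first band to -0.32 in the last and gave 847 calls.

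**Figure D2:**
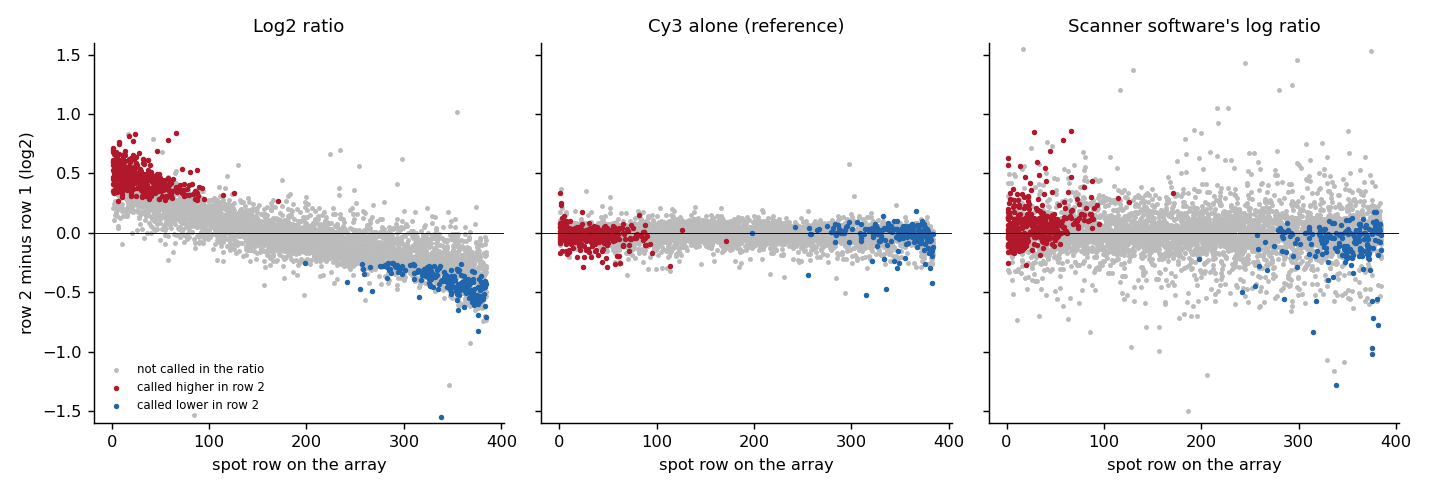
The difference of row 2 minus row 1 (log2) against spot row for the 4483 tested genes whose probe had 1 spot, in the ratio, in Cy3 and in the scanner software's log ratio; red and blue mark genes called in the ratio, and 2 points in the first and 4 in the last panel lie beyond 1.6. The called genes sit at the 2 ends of the spot rows in the first panel and lie mostly closer to 0 in the other 2.

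Probes of the same gene at other places did not share the difference. The tested genes had 1027 other probes bright enough to test, and their row differences correlated with those of the tested probes at r = 0.08 across probes, with 53.2% of the same sign. For the difference between MM and M in the same probes r was 0.40. Of 112 other probes of called genes, 58 had the same sign. Against 7.75% of all tested genes called in either direction, 6 of the 112 were called in the same direction and 3 in the opposite direction (for Eloc, Pam16 and Tnrc6b). These 3 genes were chosen after their values were seen. In contrast, 2 spots of 1 probe that lay within 48 spot rows of each other had row differences correlated at r = 0.90 over 1641 probes, and 2 spots more than 192 spot rows apart at r = 0.32 over 1548 probes. With the position trend taken out, the correlation of other probes with the tested probes was 0.20, and that of the row differences on slides 2 and 1 was 0.12 over 11654 genes, against 0.54 before.

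The 4 largest rises were those of Ces2e, a liver carboxylesterase, the lysosomal cholesterol gene Npc1, the semaphorin Sema4g (0.75) and the sterol regulator Insig2. Npc1 moves cholesterol out of the lysosome. Its log2 ratio was 0.53 on M 5, 0.74 on MM 1, 0.80 on M 6 and 1.03 on MM 2, and 1.69 on MM 3, 1.42 on M 7, 1.63 on MM 4 and 1.42 on M 8. The row 2 values lay above all row 1 values, and the difference was 0.76 ± 0.09 (SE, limma adjusted p = 0.0338), with 0.78 in Cy5 and -0.01 in Cy3. The tested probe sat in spot row 8. The other Npc1 probe differed by -0.14 (unadjusted p = 0.149), and the tested probe by 0.29 with the position trend out and by 0.17 in the scanner software's ratio. Insig2, which holds the sterol sensor in the endoplasmic reticulum, had ratios of 2.81, 3.06, 2.97 and 3.24 on the row 1 arrays and 3.60, 4.03, 3.53 and 3.88 on the row 2 arrays, in the order given above. Its difference of 0.74 ± 0.13 (adjusted p = 0.0341) fell to 0.35 with the trend out and to 0.28 in the scanner software's ratio, with spots in rows 19 and 57.

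Ces2e had ratios of 1.41, 1.64, 0.14 and 0.43 in row 1 and 2.98, 2.73, 3.43 and 2.25 in row 2. In Cy5 it passed the scanner's background test on 2 of 4 row 1 arrays and on all 4 of row 2, so that the difference of 1.95 ± 0.32 rests in part on dim spots. Its spots lay in rows 20 and 190, and the difference was 1.72 ± 0.36 with the trend out (adjusted p = 0.618) and 3.76 ± 1.41 in the scanner software's ratio (adjusted p = 0.846). Add2, an adducin of the membrane skeleton, differed by 0.73 here and by -0.41 on slide 1, a difference between the slides that was not called (adjusted p = 0.772). The other rises among the 12 were Nudt4, C12h12orf43, Erg28 (a sterol synthesis scaffold), Ptgr3, Ostm1, Sf3b2 and Cybc1, from 0.66 to 0.71. The 12 probes had a mean spot row of 108.5 or less.

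The largest falls were the glucuronosyltransferases Ugt2b10 and Ugt2b37, enzymes that couple steroids and drugs to glucuronic acid. Members of this subfamily are near-identical, and their probes may share transcripts. Ugt2b10 had ratios of 5.28, 4.87, 5.05 and 5.30 in row 1 and 3.99, 4.30, 4.51 and 4.40 in row 2, with no overlap. It differed by -0.83 ± 0.13 (adjusted p = 0.0338), by -0.51 with the trend out and by -0.71 in the scanner software's ratio (unadjusted p = 0.00065, adjusted p = 0.78); its spot lay in row 376. Ugt2b37 differed by -0.82 ± 0.14, and by -0.52 and -0.39 under those treatments, with spots in rows 355 and 370. Ugt2b1, also on the list of CAR and PXR targets, differed by -0.57 and by -0.33 with the trend out. The other falls were Stk4, Cavin3, Slc25a28, Tor1aip1, Fam25a, Fam210b, Ahcyl1, Tuba4a and Qng1, from -0.65 to -0.57. The probes of the 12 falls had a mean spot row of 273 or more. Over the 24 genes the median size was 0.68 in the ratio, 0.28 with the trend out and 0.26 in the scanner software's ratio.

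**Figure D3:**
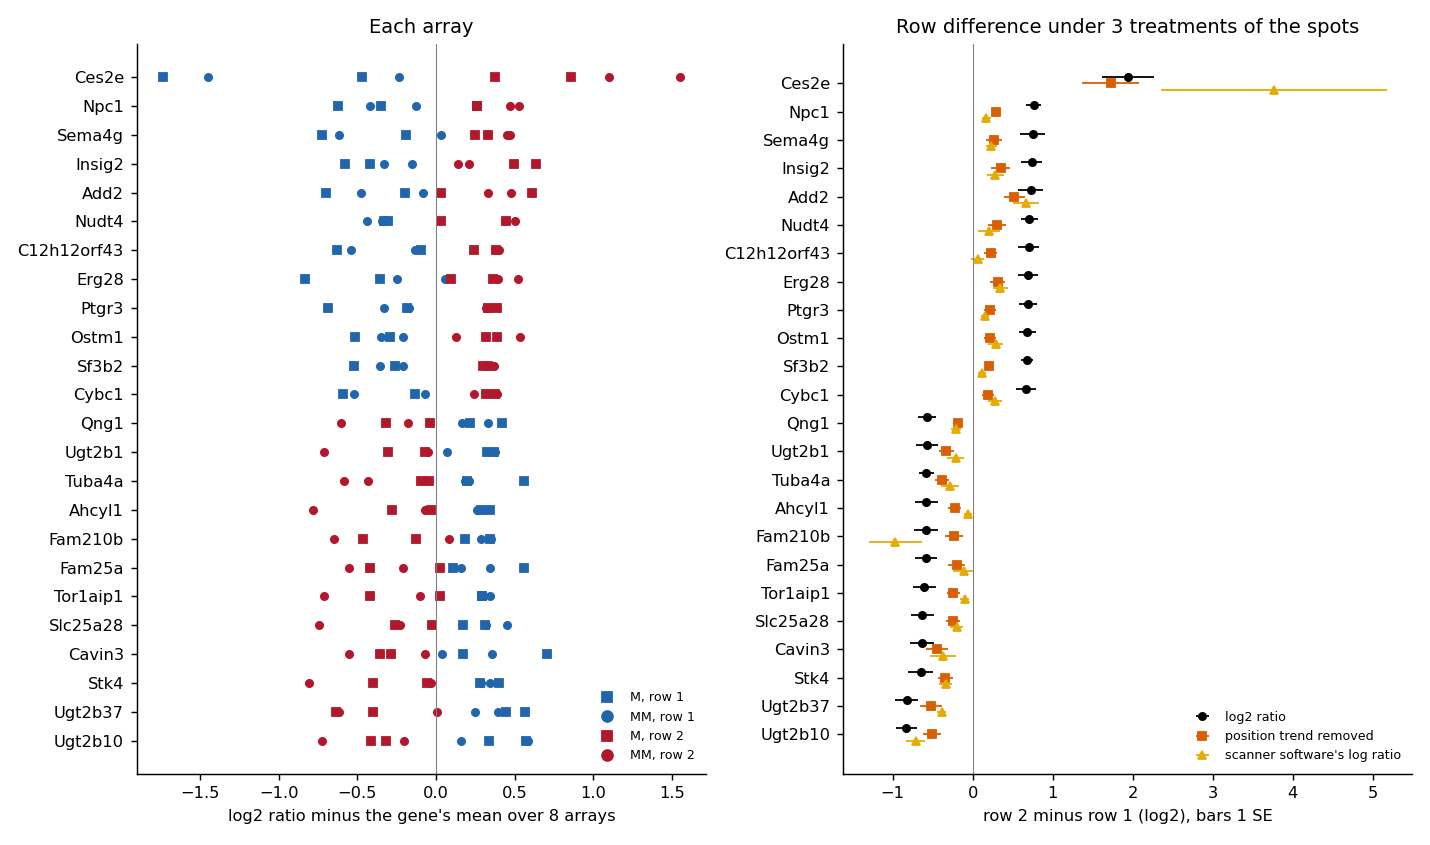
Left, the log2 ratio of the 12 largest rises and 12 largest falls on each array, minus the gene's mean over 8 arrays (blue, row 1; red, row 2; circles, MM; squares, M). Right, the difference of row 2 minus row 1 (bars, 1 SE) in the ratio, with the position trend taken out and in the scanner software's ratio; most genes move toward 0, and Ces2e stays the largest.

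Lists of liver genes were called about as often as other genes. The 37 lists held 564 measured genes, of which 39 were called (6.91%, against 7.75% of all genes tested), 24 higher and 15 lower. By mean spot row, the probes of the 24 lay in the first 192 spot rows and those of the 15 beyond them, without exception. Outside the exocrine pancreas list, list medians ran from -0.13 to 0.18, and the median over all genes was near 0. With the position trend taken out they ran from -0.09 to 0.15. The 39 called members had a median size of 0.42 in the ratio, 0.12 with the trend out and 0.11 in the scanner software's ratio.

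Of the 8 measured targets of the aryl hydrocarbon receptor, the dioxin sensor that drives Cyp1 enzymes, 2 rose and 1 fell. Cyp1a2, the constitutive hepatic member, had ratios of 5.27, 5.39, 5.30 and 5.39 in row 1 and 5.69, 5.50, 5.66 and 5.50 in row 2. It rose by 0.25 ± 0.06 (adjusted p = 0.0439), by 0.09 with the trend out. The quinone reductase Nqo1 rose by 0.45 (0.11 with the trend out). The glucuronosyltransferase Ugt1a6 fell by 0.46 (-0.32 with the trend out). The most responsive target, Cyp1a1, was at -0.26 (adjusted p = 0.139). Its probe had 10 spots, and it was at -0.28 with the trend out and at -0.32 in the scanner software's ratio (limma adjusted p = 0.618 and 0.78). The 2 spots of the tested probe lay in spot rows 54 and 154 for Cyp1a2, 16 and 71 for Nqo1, and 132 and 378 for Ugt1a6. The list's median was -0.04.

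Of 21 targets of the xenobiotic receptors CAR and PXR, 1 (Ugt2b1) fell, and of 19 Nrf2 and glutathione genes 1 rose (Nqo1) and 1 fell, the pentose phosphate enzyme Tkt (-0.39). Fat oxidation had 2 of 24 called: Ppara, the receptor that switches on fat oxidation, and Hadha, a subunit of the mitochondrial trifunctional protein (0.37; 0.06 with the trend out). Ppara had ratios of 1.36, 1.22, 1.17 and 1.15 in row 1 and 1.31, 1.90, 2.004 and 1.99 in row 2. The MM 3 value lay among those of row 1. Its difference of 0.58 (adjusted p = 0.044) was 0.46 with the trend out and -0.32 on slide 1. Among 14 glucocorticoid response genes 1 rose, Tsc22d3, an anti-inflammatory target of the receptor (0.57; 0.44 with the trend out). Of 18 genes of the growth hormone axis 2 rose, Serpina6, which carries corticosterone in blood (0.60; 0.19 with the trend out), and Igfbp3 (0.38; 0.10).

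Of 17 glycolysis and glycogen genes 3 rose, Pgk1 (0.48), Gys2 (0.42) and Gpi (0.38). With the trend out they differed by 0.07, 0.09 and 0.08. No member of the lists for cholesterol synthesis (24 genes), lipogenesis (15), gluconeogenesis (11), ketone bodies (6), interferon response (20) and the unfolded protein response (23) was called in the ratio. In Cy5 alone 4 members passed: the gluconeogenesis genes Creb1 (0.37) and Pc, pyruvate carboxylase (0.27), were higher in row 2, and the sterol factor Srebf2 (-0.31) and the ketone body enzyme Acat1 (-0.44) were lower. These 4 were chosen after their values were seen. Of 13 clock genes 1 rose, Tspan4 (0.40). The clock output gene Dbp was at 0.42 and the fatty acid synthase Fasn at -0.33, neither called. Of 23 acute phase genes 2 rose, Nfkbia (0.42) and Il1rn (0.31), and among 20 coagulation and complement genes the lectin Mbl1 rose (0.51; 0.22 with the trend out). Of 16 apolipoprotein and lipid carriage genes Scarb1, the HDL receptor, rose (0.29) and Apoa5, a regulator of plasma triglycerides, fell (-0.52). Apoa5 did not pass in Cy5 (-0.13), and its Cy3 signal was higher by 0.37.

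Among housekeeping complexes, the proteasome and oxidative phosphorylation lists had members called in both directions. Of 25 proteasome genes Psmc4 rose (0.43) and Psma7 (-0.49), Psmb3 (-0.39) and Psmd14 (-0.31) fell. Among 26 ribosomal proteins Rpl19 (-0.53) and Rps6 (-0.38) fell. Of 28 oxidative phosphorylation genes Uqcrb (0.48) and Cox4i1 (0.36) rose and Cox6c (-0.34) fell. The 2 spots of the Psmc4 probe lay in spot rows 37 and 50 and those of the Psma7 probe in 354 and 363. The 1 spot of the Rpl19 probe lay in 378. Rpl19 had ratios of -0.47, -0.58, -0.60 and -0.63 in row 1 and -1.38, -1.05, -1.06 and -0.91 in row 2, apart. Its row difference was -0.18 with the trend out and 0.07 in the scanner software's ratio.

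**Figure D4:**
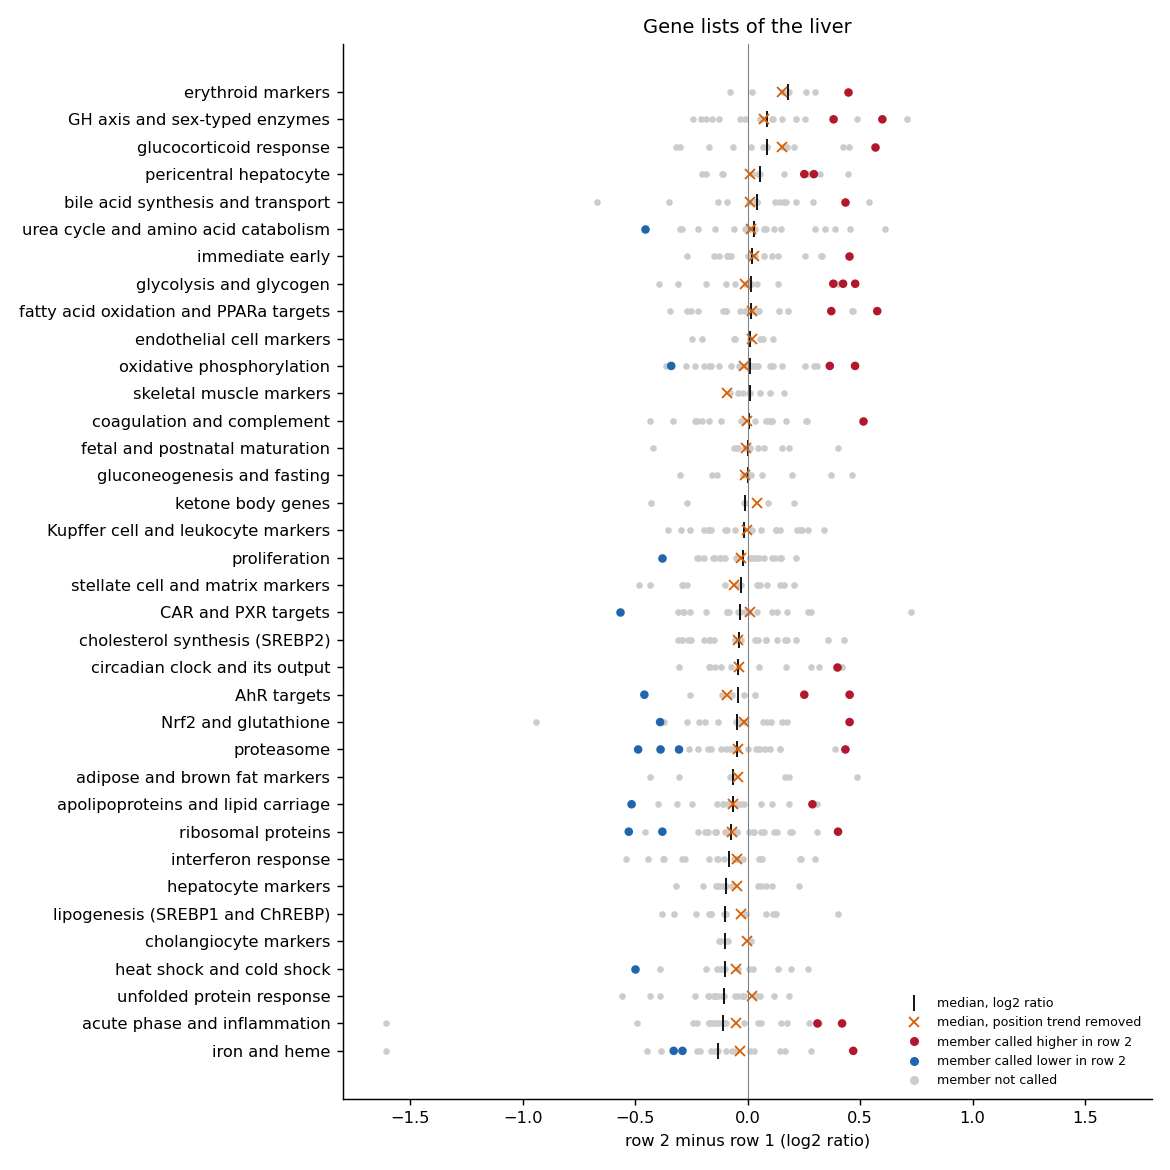
Row 2 minus row 1 (log2 ratio) of the members of the gene lists; grey points were not called, red and blue points were called higher and lower, black bars are list medians and orange crosses are medians with the position trend taken out. The exocrine pancreas list is left out of the plot, and the other medians lie between -0.13 and 0.18.

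Single members of other lists that were called higher were Hbb-b1 (0.45), the transferrin receptor Tfrc (0.47), Egr1 (0.45), Slco1a4 (0.43) and the vitamin C synthesis enzyme Gulo (0.29). Those called lower were Hspb1 (-0.50), Sdsl (-0.46), Ccnd1 (-0.38), Ftl1 (-0.33) and Ppox (-0.29). These list calls are calls in the ratio, and not all were also called in Cy5 and not in Cy3. In the iron and heme list 1 gene rose and 2 fell in the ratio, and 2 met both conditions. For oxidative phosphorylation 2 rose and 1 fell, and 2 met both. For bile acid synthesis and transport 1 rose, and 0 met both. All 13 hepatocyte markers were measured and none was called, with a median of -0.09.

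The exocrine pancreas list was the one list whose median passed 0.2 in size, at -1.20, with 0 of 5 measured members called. In bulk tissue fewer cells of a type and less RNA per cell cannot be told apart. The 5 transcripts were highest on 2 row 1 pools, MM 1 and M 6, and without these 2 arrays the list's median was -0.30. Ctrb1, a chymotrypsinogen, had a ratio of 1.01 on M 5, 3.63 on MM 1, 2.66 on M 6 and -0.20 on MM 2, and between -0.44 and -0.10 on the row 2 arrays. M 5 thus also lay above all row 2 arrays, and MM 2 lay among them. Cpa1, a carboxypeptidase, had 2.68 on MM 1 and 1.90 on M 6 and at most 0.73 elsewhere, and passed the background test on 4 arrays of row 1 and 1 of row 2. These 2 arrays entered every row difference above, and without both of them no gene was called in the ratio (limma; 2112 at an unadjusted p under 0.05); the part of the pancreas transcripts in other genes' differences was not tested. The trypsinogen Prss1, too dim for the test, was at 4.18 on MM 1 and 2.63 on M 6 and at most 0.76 elsewhere. Of 20 listed genes with a probe 7 were not well above background on any array, the lipase Pnlip and the pancreas transcription factor Ptf1a among them. On slide 1 the pancreas list had a median row difference of -1.23 over 3 measured members, all lower in row 2. Skeletal muscle genes (8 measured) had a median of 0.01 on slide 2 and of -1.95 on slide 1.

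**Figure D5:**
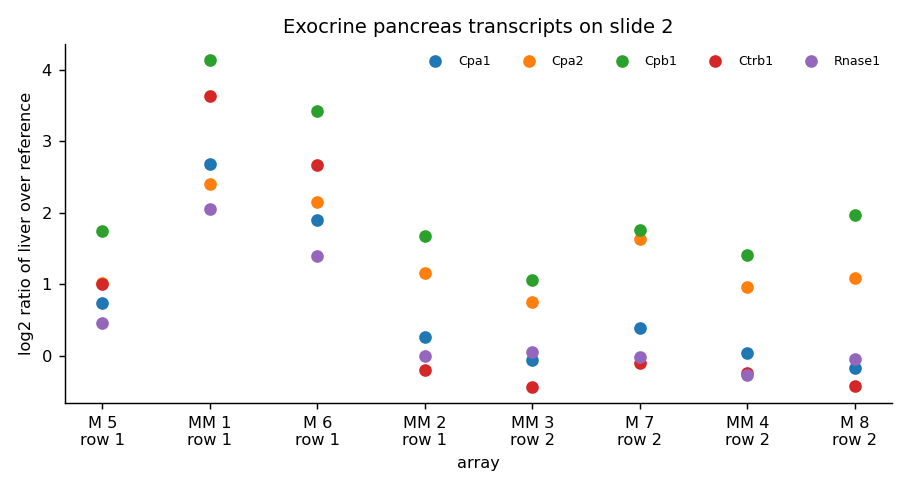
The log2 ratio of liver over reference for the 5 measured exocrine pancreas transcripts on each array of slide 2, with the row under each array's name. MM 1 and M 6 in row 1 lie above the other 6 arrays for each of the 5 genes.

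On slide 1 no gene was called between the rows (limma; 2145 of 11860, 18.1%, at an unadjusted p under 0.05), nor in Cy5 (2079, 17.5%) or Cy3 (729, 6.15%). Of the 931 genes called on slide 2 and measured there, 886 (95.2%) had the same sign, against 73.7% of all 11654 genes measured on both slides. Those higher on slide 2 had a median of 0.23 on slide 1 against 0.42 on slide 2, and those lower -0.22 against -0.39. The difference between the slides' row effects gave no call (limma; 712 of 12329, 5.78%, at an unadjusted p under 0.05), nor did the difference between the row effects in M and in MM pups (470, 3.88%). Array quality by row was read from single values over the whole array, which do not show a trend along the spot rows. Of 13 measures, 2 reached the smallest two-sided exact permutation p that 4 against 4 arrays allow (0.0286): spots well above background in Cy3 were 73.8% ± 0.66 in row 1 and 71.8% ± 0.12 in row 2 (SD, n = 4), and outlier spots 1.64% ± 0.16 and 1.36% ± 0.04. Neither passed adjustment over the 13 (0.186). The 4 spike-in control probes that were bright on all 8 arrays differed by -0.09 to -0.01.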

How the data were processed

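The deposited scanner output gives, per the file headers (Agilent Feature Extraction 11.0.1.1), median pixel intensity of spot and local background, background-subtracted and processed intensity, and a log10 ratio of Cy5 over Cy3 by that software. The deposited series table holds log2 ratios whose normalization is not stated; they correlated at 0.996 to 0.997 with the ratios used here. Background was corrected with normexp (offset 50) and ratios normalized by loess within arrays, with control spots at weight 0 and outlier spots left out (limma 3.58.1, R 4.3.3). Spots of a probe were averaged. Probes well above background in Cy5 on at least 4 of 8 arrays were kept (13150 of 30367), and the brightest per gene tested. Cy5 and Cy3 alone were quantile normalized.

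Genes were named by RefSeq accession (18005 of 30367 probes); 7837 of the tested genes had a symbol, and the rest are given only in counts. limma tested row with group as a block (5 residual degrees of freedom), with Benjamini-Hochberg adjustment. Named were the 12 largest rises and falls that passed in ratio and Cy5, not in Cy3, and whose rows were apart, up to 4 members of lists with a call, and sentinel genes. Members and lists were chosen with earlier results of these data known. The number of arrays limits precision. The fit was tested on simulated data with independent noise and no position trend, so that test does not cover the trend seen here. Alternatives are given below. Some results are not reported here.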

Additional observations from a re-analysis of the deposited data

Results flagged for a closer look

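In 146 sets of 4 arrays of a row (largest genes, quality measures, list levels), 5 had 1 array far from the other 3; chance alone sets about 1 in 20 such sets apart. On MM 3, Cy5 was well above background on 46.2% of spots, against 51.7% to 52.2% on the other row 2 arrays. The Nudt4 ratio was 1.40 on M 8 against 1.81 to 1.87, the Tuba4a ratio 1.25 on M 6 against 0.88 to 0.90, and the Ugt2b1 ratio 8.24 on MM 2 against 8.50 to 8.55. The clock list's level was 0.0464 on M 6 against -0.0228 to -0.0114.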

How the results depend on the processing

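The count of ratio calls, 940, fell to 0 with the position trend removed, with the log ratio of the scanner software, with median centring in place of loess (2063 at an unadjusted p under 0.05), with array column as a further block (3386), within M only (2043) and within MM only (1971), without the arrays of column 1 (2362) and without MM 1 and M 6 (2112). It was 431 with no filter on dim probes and 1927 with all 16 arrays (51.0% higher, against 64.4%); with no background correction 50.3% of 1004 calls were higher. Leaving out 1 array gave 0 to 1096 ratio calls, 0 to 1717 Cy5 calls, 0 to 7 Cy3 calls, 0 to 990 calls in both, and 0 to 2 in the row by group test, and 0 in the row by slide test and on slide 1. Calls in Cy5 were 709 with 75th percentile scaling, 12 without column 1, and 0 without MM 1 and M 6, with the column block and with the position trend removed. Calls in Cy3 were 16 with the column block, 1 with the filter on all 8 arrays, 1 without MM 1 and M 6, and 0 with the position trend removed. Calls in both were 409 with no filter, 1556 with 16 arrays, and 0 without MM 1 and M 6, without column 1, with the column block, median centring, the scanner software's ratio or the position trend removed. The trend removal and the 2 settings that leave out 2 arrays were chosen after seeing the data. Why other settings moved the counts was not tested.

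The 61 called genes looked at over 25 settings were chosen by their calls on these same arrays. Of their 1524 values, 559 kept their call, 958 kept only the direction and 7 turned. With the scanner software's ratio Cox4i1 was at -0.0363, Cox6c at 0.0629, Ftl1 at 0.0938, Gpi at -0.0126, Rpl19 at 0.0657, Rps6 at 0.0118 and Uqcrb at -0.00675. List medians moved by less than 1 SD between arrays of a row in 858 of 925 values. By replicate number, no paired analysis was possible because M pools (5 to 8) and MM pools (1 to 4) share no replicate number and each number lies in 1 row. Signals near background limit Ces2e.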
